A study of Mus musculus with 10 samples.

Results

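The ATF2/ATF7 family of transcription factors and the enzymes that write and erase methylation on lysine 9 of histone H3 (H3K9) were followed in inguinal white adipose tissue (iWAT) of male C57BL/6 mice by RNA-seq. The genes were chosen by name: Atf7, Atf2 and Creb5 of the family, the methyltransferases Ehmt1, Ehmt2, Setdb1, Suv39h1 and Suv39h2, and the demethylases Kdm3a and Kdm4c, 10 of the 51826 genes listed, of which 33120 have an exon length and can have exon reads. The first comparison asked whether a low-protein diet (LPD) of the father, relative to a control diet (CD), left a difference in offspring that were themselves fed the CD: 3 F1 sons of CD fathers (CD offspring) and 3 F1 sons of LPD fathers (pLPD offspring) were taken at 5 weeks of age. The second compared 2 F0 males fed the CD with 2 F0 males fed the LPD from weaning, taken at 10 to 12 weeks of age. All were wild type, with no transgene and no deleted gene, and each library was taken as 1 mouse. The study treats the F0 males as the male parents, without pairing individual sons with individual males in the sources used here.

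ATF7, ATF2 and CREB5 are basic leucine zipper (bZIP) proteins that bind the cAMP response element (CRE) as homodimers or with JUN proteins. The stress kinases p38 and JNK phosphorylate ATF2 and ATF7, and ATF7 is known to keep target genes silent by bringing H3K9 methyltransferases to them until stress releases it from chromatin. EHMT1 (GLP) and EHMT2 (G9a) act as a pair on euchromatin and place mono- and dimethylation, SETDB1 places trimethylation on genes and retroelements, and SUV39H1 and SUV39H2 place trimethylation on heterochromatin near centromeres. KDM3A removes mono- and dimethylation and takes part in the thermogenic response of fat, while KDM4C removes di- and trimethylation.

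Because the family binds the CRE, the letters TGACGTCA were searched on both strands of the RefSeq promoters of the members (build GRCm38.p6, 250 bases before to 50 after each annotated start). All 10 genes were matched, with 16 starts. The letters were found at 2 of the 16 starts, in Creb5 and in Suv39h2, and in 588 of all 32851 mouse promoter windows of this length (1.79%). The promoter stretches of these genes, and for contrast those of Atf7 and Atf2, which lack the letters, are shown from 5′ to 3′ on the strand of the gene, each as the 150 bases that end before the first annotated base of the gene, with the CRE letters in capitals. They lie at chr6:53287120-53287269 on the plus strand for Creb5, and on the minus strand at chr2:3475032-3475181 for Suv39h2, chr15:102625465-102625614 for Atf7 and chr2:73892640-73892789 for Atf2.
Creb5: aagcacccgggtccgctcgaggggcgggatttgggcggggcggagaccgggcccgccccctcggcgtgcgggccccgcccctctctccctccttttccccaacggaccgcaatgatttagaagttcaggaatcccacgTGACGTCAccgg
Suv39h2: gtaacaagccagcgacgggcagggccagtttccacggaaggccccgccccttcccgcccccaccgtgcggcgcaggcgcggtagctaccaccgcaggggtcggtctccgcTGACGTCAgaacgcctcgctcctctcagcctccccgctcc
Atf7: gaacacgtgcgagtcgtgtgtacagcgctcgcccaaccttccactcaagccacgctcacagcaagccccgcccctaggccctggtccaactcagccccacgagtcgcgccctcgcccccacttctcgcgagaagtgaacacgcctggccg
Atf2: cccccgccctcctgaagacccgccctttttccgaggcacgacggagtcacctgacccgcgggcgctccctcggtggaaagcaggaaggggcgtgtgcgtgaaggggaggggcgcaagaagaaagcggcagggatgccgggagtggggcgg
In Creb5 the CRE letters began 45 bases before the upstream RefSeq start, overlapping the E-box letters CACGTG, and in Suv39h2 they began 85 bases before the start. The second RefSeq start of Creb5, at position 53573374 of chromosome 6, held the AP-1 letters TGACTCA (found in 5.20% of all windows) and no CRE. A match of letters is a description of the promoter, and no binding was measured.

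Sequencing gave 6351075 to 10044546 exon reads per library, so that 3 reads correspond to 0.299 to 0.472 counts per 1000000 exon reads (CPM). Reads on introns of coding genes made up 36.0% to 37.5% of the reads of CD offspring, 40.7% to 48.4% in pLPD offspring and 36.3% to 37.9% in F0, so the F1 groups did not overlap in this share. Adipoq, Plin1 and Fabp4, which define adipocytes, were at 1166 CPM or more in every library. Of the other cell types a fat pad can hold, the summed CPM of 6 macrophage markers was 522 to 607 in CD offspring and 346 to 435 in pLPD offspring, and the sum of 7 markers of cycling cells was 120 to 144 and 150 to 185. Summed fibroblast and progenitor markers (6 genes) were 988 to 1250 CPM in CD offspring and 849 to 1065 CPM in pLPD offspring, which overlap, while F0 CD-fed males had 1442 to 1644 CPM and LPD-fed males 1133 to 1156 CPM. Skeletal muscle markers (10 genes) summed to 3377 to 5266 CPM in CD-fed and 1662 to 2255 CPM in LPD-fed F0 males, and to 190 to 483 CPM in all F1 mice. Summed lymphocyte and endothelial markers overlapped between the F1 groups, and of the 2 lists only the lymphocyte markers (8 genes) stood apart in F0, with 365 to 416 CPM in CD-fed and 451 to 494 CPM in LPD-fed males. Epithelial markers (6 genes) summed to 10.5 to 14.9 CPM in CD offspring and 1.53 to 4.87 CPM in pLPD offspring, and Krt5 and Krt14, which define basal epithelium, were below 1 CPM in every library.

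**Figure D1:**
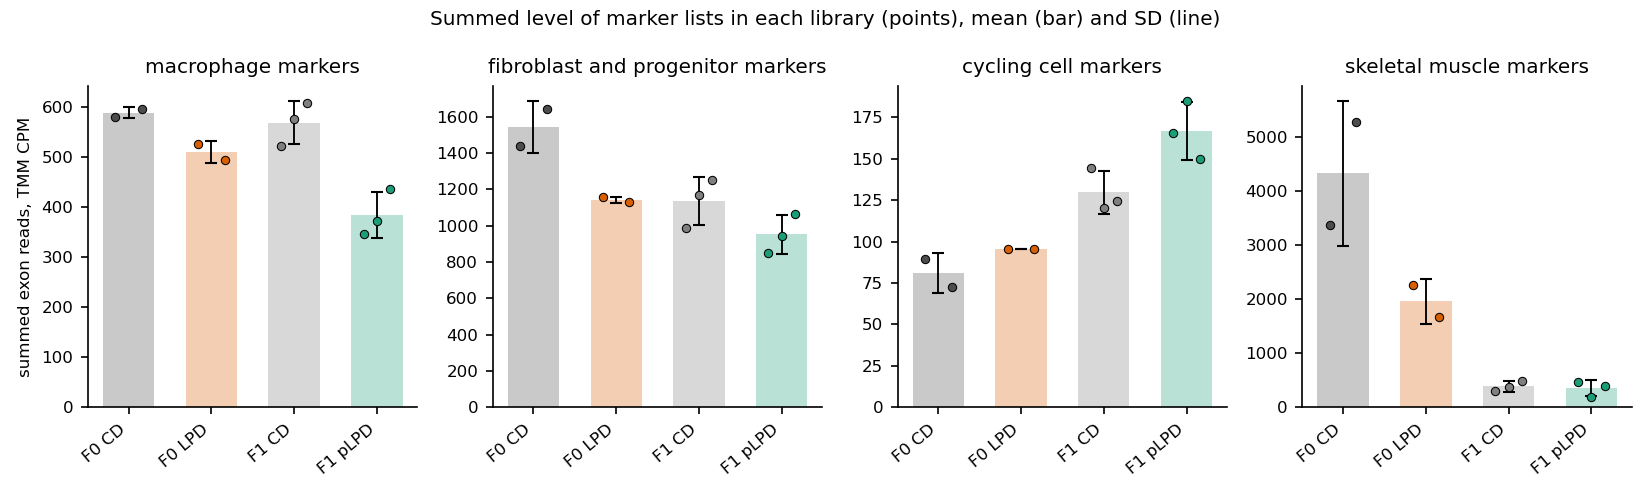
Summed exon-read level (TMM-normalized CPM, vertical axis from 0) of 4 marker lists in each library (points), with group mean (bar) and SD (line). Macrophage sums of the 3 pLPD offspring (346 to 435 CPM) lie below those of the 3 CD offspring (522 to 607 CPM), and skeletal muscle sums are highest in the F0 CD-fed males.

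All 10 members were detected in every library and all passed the filter on low counts. Levels between genes were compared per length, as the RPKM of the authors. Ehmt2 had the highest RPKM in each group, at 13.6 ± 1.23 (SD, n = 3) in CD offspring, and its values did not overlap those of the gene next in order in any group. Ehmt1, Atf7 and Atf2 followed, at 4.69 ± 0.33, 4.28 ± 0.26 and 3.72 ± 0.45 RPKM in CD offspring, where neighbours in this order overlapped. Setdb1, Kdm4c and Kdm3a, at 3.27 ± 0.49, 2.95 ± 0.36 and 2.68 ± 0.05 RPKM in the same mice, also overlapped from one to the next. Suv39h1 (1.14 ± 0.19 RPKM), Creb5 (0.74 ± 0.03 RPKM) and Suv39h2 (0.47 ± 0.07 RPKM) stood apart from each other in CD offspring, but Creb5 (0.41 ± 0.08 RPKM) and Suv39h2 (0.32 ± 0.15 RPKM) overlapped in pLPD offspring. Over all 10 libraries the mean RPKM of Ehmt2 lay above 89.6% of the 15111 genes tested in the fit of all libraries, and that of Creb5 above 23.8%.

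The reads of 3 members could not be placed with certainty, which bears on all their values. Only 9.05% of the exon reads of Atf7 (chr15:102525946-102625464, minus strand) mapped uniquely, and the annotation holds a second coding gene, Gm28047, over the same stretch and strand. For Suv39h1 (chrX:8061171-8074760, minus strand) the share was 25.9%. For Suv39h2 (chr2:3455815-3475031, minus strand), which overlaps Dclre1c on the other strand, it was 37.0%, with 15 to 52 exon reads per library. The other 7 members had 98.1% (Setdb1) or more unique exon reads, summed over the libraries.

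**Figure D2:**
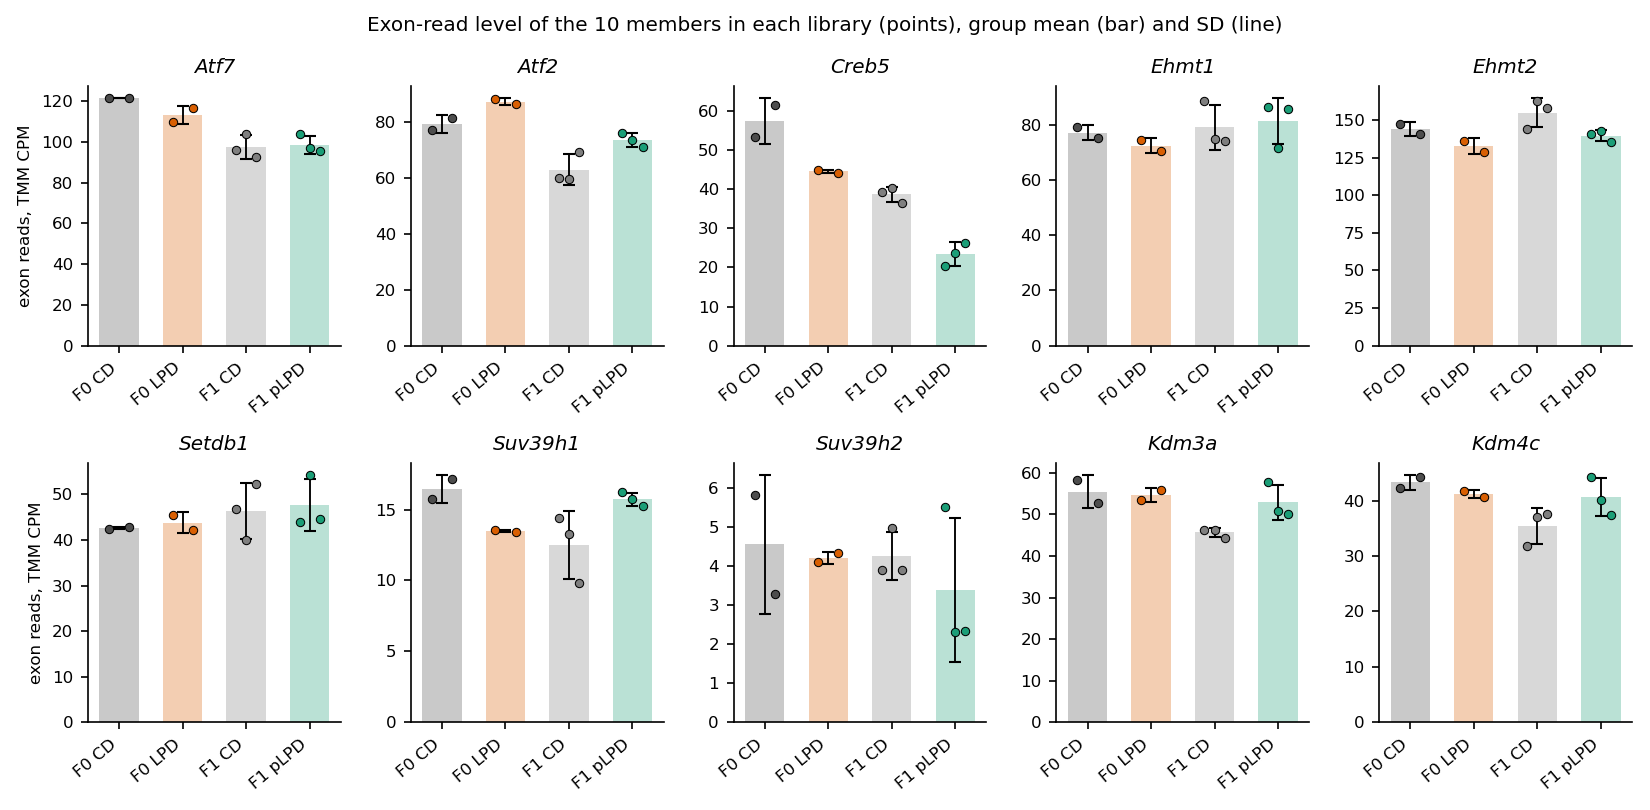
Exon-read level (TMM-normalized CPM, each vertical axis from 0) of the 10 members in each library (points), with group mean (bar) and SD (line), for F0 males fed CD or LPD (n = 2 each) and F1 offspring of CD or LPD fathers (n = 3 each). Creb5 steps down over the 4 groups without overlap, from 57.3 CPM in F0 CD-fed males to 23.4 CPM in pLPD offspring, while Ehmt1, Setdb1 and Suv39h2 overlap between the F1 groups.

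Creb5 (chr6:53287270-53700376, plus strand), which encodes a CRE-binding relative of ATF2 and ATF7, was lower in pLPD offspring than in CD offspring, at 0.61 of the level. It was the only member past the threshold in this comparison. Exon reads of Creb5 were at 39.2, 40.2 and 36.5 CPM in the 3 CD offspring and at 20.3, 23.6 and 26.3 CPM in the 3 pLPD offspring, 38.6 ± 1.92 against 23.4 ± 2.99 CPM (SD, n = 3 each). Every pLPD offspring was below every CD offspring. The log2 fold change was −0.71 (SE 0.12, 95% interval −0.98 to −0.45, adjusted p = 0.0216, edgeR quasi-likelihood test with Benjamini-Hochberg adjustment over 14049 genes). Tested alone by exact permutation (two-sided), the gene gave p = 0.1, the smallest that 3 against 3 mice can reach. Of all genes tested, 164 (1.17%) passed the threshold and 144 (1.02%) passed it as lower in pLPD offspring, against 1 of the 10 members. Among the 144, 82 had a lower log2 fold change than Creb5. The call of Creb5 was lost without CD offspring 1 (log2 fold change −0.71, adjusted p = 0.0996), CD offspring 2 (−0.68, adjusted p = 0.113), pLPD offspring 1 (−0.62, adjusted p = 0.0680) or pLPD offspring 2 (−0.73, adjusted p = 0.104) in edgeR, and kept without either of the others. Of all genes, 18, 31, 52 and 24 passed without CD offspring 1, CD offspring 2, pLPD offspring 1 and pLPD offspring 2. Without CD offspring 3 and pLPD offspring 3, 510 and 162 passed. The call of Creb5 was also lost when the exon share of each library entered the fit as a covariate (−0.45, adjusted p = 0.501), where 13 of all genes passed.

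In whole tissue, fewer cells that express Creb5 and less Creb5 RNA per cell cannot be told apart. Between the F1 groups, 20.1% of all genes tested did not overlap. All 6 macrophage markers had a lower mean in pLPD offspring, and 5 of the 6 did not overlap between the groups. All 6 fibroblast and progenitor markers also had a lower mean, 2 of them without overlap. So did all 5 endothelial markers (2 without overlap) and all 6 epithelial markers (4 without overlap). Of the other lists, a lower mean was found for 0 of 8 lymphocyte, 1 of 7 cycling-cell, 2 of 8 adipocyte and 6 of 10 skeletal muscle markers. Without overlap, 2 lymphocyte, 4 cycling-cell and 2 adipocyte markers were higher and 1 muscle marker was lower. The part of these lists and of the intron share in the Creb5 difference was not tested.

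In F0 the estimate for Creb5 had the same sign. Exon reads were at 53.2 and 61.4 CPM in the CD-fed males and at 44.8 and 44.1 CPM in the LPD-fed males. The values did not overlap, and the log2 fold change was −0.37 (SE 0.10, 95% interval −0.59 to −0.14), with an adjusted p of 0.102 (edgeR), which did not pass the threshold. Of the 10 members, 0 passed it in F0 with edgeR and 0 with DESeq2 or limma, beside 364 of 14581 genes tested (2.5%, edgeR). With edgeR, 1 member had an unadjusted p under 0.05, beside 15.7% of all genes. All 10 values for Creb5 fell in order of group: F0 CD-fed, F0 LPD-fed, CD offspring, pLPD offspring, with no overlap from one to the next. The share of all genes with such an order was not computed. Single diet steps without overlap were found for 46.5% of all genes tested in F0 and 20.1% in F1. The step from F0 LPD-fed males to CD offspring is one of generation and age as well as of diet. Summed macrophage markers were also lower in the LPD-fed males (495 to 526 CPM) than in the CD-fed males (581 to 597 CPM). Of these 6 markers, 4 had a lower mean, all without overlap, while Adgre1 and Cd68 had a slightly higher mean. Summed fibroblast and progenitor markers were lower as well, with a lower mean for 5 of 6 and no overlap for 4. The part of either list was not tested. The diet difference itself did not differ between generations past the threshold (interaction −0.36, 95% interval −0.71 to −0.0079, adjusted p = 0.383, edgeR fit of all libraries).

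Intron reads, a readout apart from the exon reads, were many in Creb5: 836 to 3226 per library against 133 to 616 exon reads, or 84.6% of the reads of the gene. Intron reads of Creb5 stood at 306, 322 and 294 CPM in CD offspring and at 171, 201 and 261 CPM in pLPD offspring. They were at 426 and 500.4 CPM in F0 CD-fed males and at 387 and 410.3 CPM in LPD-fed males. The groups thus ranked on introns as they did on exons, again without overlap. The F1 log2 fold change on introns was −0.55 (SE 0.12, adjusted p = 0.0785, edgeR) and that of F0 −0.21 (SE 0.09, adjusted p = 0.320, edgeR), so that neither passed the threshold. On introns, 0 of 10 members passed in F1 (57 of 13456 genes, 0.424%) and 0 of 10 in F0 (499 of 14334 genes, 3.48%). An unadjusted p under 0.05 was found for 2 members in F1, beside 13.8% of all genes, and for 1 in F0, beside 14.8% (edgeR). With uniquely mapped intron reads alone, Creb5 passed in F1 (−0.55, adjusted p = 0.0468, edgeR), and it also passed without pLPD offspring 3 (−0.72, adjusted p = 0.0145) and, in F0, without CD-fed male 1 (−0.32, adjusted p = 0.0222).

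**Figure D3:**
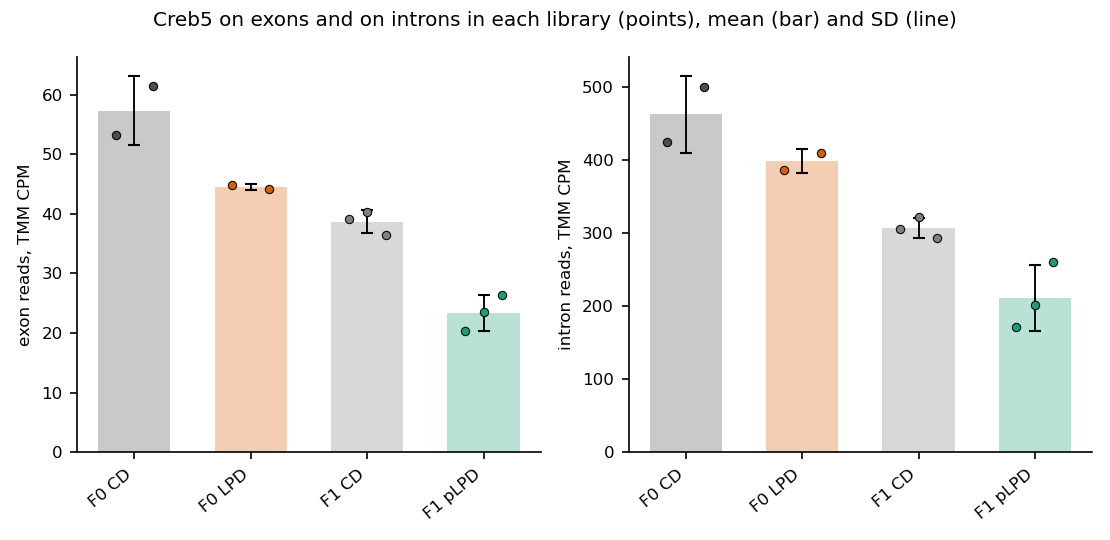
Creb5 exon reads (left) and intron reads (right) as TMM-normalized CPM from 0, in each library (points) with group mean (bar) and SD (line). On both readouts the 4 groups step down without overlap, from 57.3 to 23.4 CPM on exons and from 463 to 211 CPM on introns.

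Atf7, the member with the best known link to H3K9 methyltransferases, had exon reads at 96.1, 103.9 and 92.6 CPM in CD offspring and at 103.6, 96.9 and 95.2 CPM in pLPD offspring. The groups overlapped, with a log2 fold change of 0.02 (95% interval −0.16 to 0.21, adjusted p = 0.925, edgeR), which turned to −0.13 with uniquely mapped reads. In F0 it was at 121.3 and 121.3 CPM in CD-fed and 109.8 and 116.3 CPM in LPD-fed males (−0.10, 95% interval −0.29 to 0.09, adjusted p = 0.649, edgeR).

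Atf2, its closest relative here, was at 59.8, 59.6 and 69.4 CPM in CD offspring and at 76.0, 73.7 and 71.1 CPM in pLPD offspring. Every pLPD offspring was above every CD offspring, 73.6 ± 2.43 against 62.9 ± 5.58 CPM (SD, n = 3 each), but the log2 fold change of 0.24 (95% interval 0.03 to 0.44, adjusted p = 0.259, edgeR) did not pass the threshold. In F0, Atf2 was at 77.0 and 81.5 CPM in CD-fed and at 88.0 and 86.3 CPM in LPD-fed males (0.14, 95% interval −0.05 to 0.33, adjusted p = 0.50, edgeR). Creb5 and Atf2 thus had estimates of opposite sign in both generations.

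Ehmt2 (chr17:34898469-34914052, plus strand), which encodes the methyltransferase paired with EHMT1, was at 144, 163 and 158 CPM in CD offspring and at 141, 142 and 135 CPM in pLPD offspring. Each pLPD offspring was lower, and the log2 fold change of −0.14 (95% interval −0.32 to 0.04, adjusted p = 0.460, edgeR) missed the threshold. Its partner Ehmt1 overlapped between the groups, with 88.4, 74.7 and 74.1 CPM against 86.2, 71.6 and 85.7 CPM (0.05, 95% interval −0.18 to 0.28, adjusted p = 0.873, edgeR). In F0 both were lower in the LPD-fed males without passing the threshold: Ehmt2 at 147 and 141 against 136 and 129 CPM (−0.12, adjusted p = 0.589) and Ehmt1 at 79.0 and 75.1 against 74.3 and 70.4 CPM (−0.09, adjusted p = 0.701, both edgeR).

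Setdb1, whose protein needs the cofactor ATF7IP for stability, overlapped between the F1 groups, at 46.7, 40.1 and 52.2 CPM against 44.0, 54.3 and 44.7 CPM (0.05, 95% interval −0.22 to 0.33, adjusted p = 0.881, edgeR). It also overlapped in F0, at 42.5 and 42.8 against 45.4 and 42.2 CPM (0.04, 95% interval −0.17 to 0.25).

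The heterochromatin enzymes were the members with fewest reads. Suv39h1 was at 14.4, 13.3 and 9.80 CPM in CD offspring and at 16.2, 15.7 and 15.3 CPM in pLPD offspring, with no overlap (0.34, 95% interval −0.03 to 0.71, adjusted p = 0.376, edgeR). In F0 the order was the opposite, with 15.8 and 17.2 CPM in CD-fed and 13.5 and 13.4 CPM in LPD-fed males (−0.29, 95% interval −0.61 to 0.03, adjusted p = 0.376, edgeR), which became 0.07 with uniquely mapped reads. The test of the difference between generations for Suv39h1 gave 0.62 (95% interval 0.13 to 1.11, adjusted p = 0.252, edgeR). Suv39h2, which carries CRE letters in its promoter as Creb5 does, overlapped between the groups of both generations, at 3.91, 4.97 and 3.89 CPM in CD offspring, 5.50, 2.30 and 2.33 CPM in pLPD offspring, 5.81 and 3.29 CPM in F0 CD-fed and 4.09 and 4.32 CPM in F0 LPD-fed males. On introns, Suv39h2 did not overlap in F1, with 10.0, 7.75 and 12.0 CPM in CD offspring and 5.54, 6.70 and 7.35 CPM in pLPD offspring (−0.61, unadjusted p = 0.0333, edgeR). Its exon interval in F1 ran from −1.15 to 0.48 on the log2 scale, or 0.451 to 1.40 of the level in CD offspring. The interval holds both lower and higher levels, and rests on 3 mice per group and few reads. With the exon share as a covariate the estimate was −1.37, which did not pass the threshold.

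Both demethylases had higher means in pLPD offspring, and neither passed the threshold. Kdm3a was at 46.3, 46.2 and 44.4 CPM in CD offspring and at 57.8, 50.9 and 50.1 CPM in pLPD offspring, without overlap (0.22, 95% interval 0.01 to 0.43, adjusted p = 0.294, edgeR). Kdm4c was at 31.8, 37.1 and 37.6 CPM against 44.3, 40.1 and 37.5 CPM (0.20, 95% interval −0.04 to 0.45, adjusted p = 0.422, edgeR). In F0, Kdm3a overlapped, at 58.3 and 52.7 against 53.5 and 55.8 CPM (−0.02), and Kdm4c was at 42.4 and 44.3 against 41.8 and 40.6 CPM (−0.07, adjusted p = 0.784, edgeR).

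**Figure D4:**
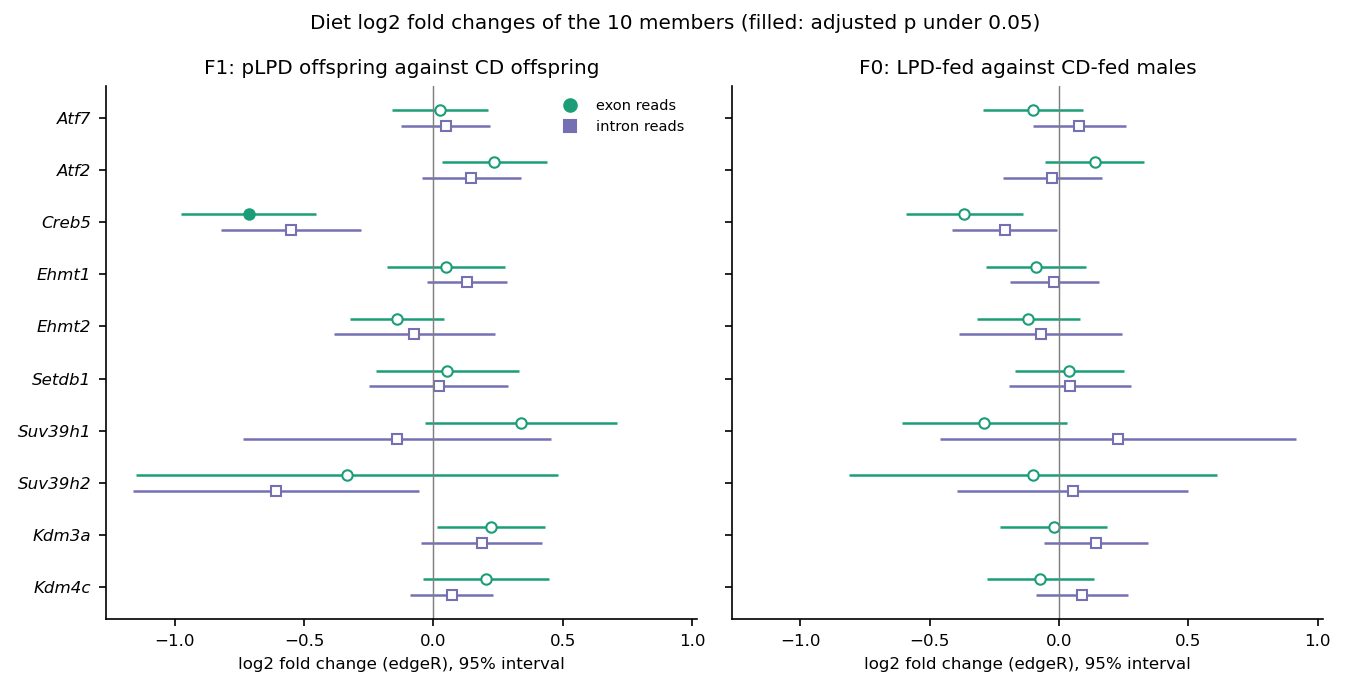
Log2 fold changes of the 10 members (edgeR, horizontal axis) with 95% intervals for pLPD against CD offspring (left) and LPD-fed against CD-fed F0 males (right), on exon reads (circles) and intron reads (squares), filled where the adjusted p is under 0.05. Only the exon value of Creb5 in F1 (−0.71) is filled, and the F1 values of the other members lie between −0.33 and 0.34 on exons.

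Over the 10 members, the median log2 fold change in F1 was 0.05, beside 0.01 for all genes tested. The F1 groups did not overlap for 5 of the 10 (Creb5 and Ehmt2 lower, Atf2, Suv39h1 and Kdm3a higher in pLPD offspring), beside 20.1% of all genes tested. In F0 the median was −0.10, beside 0.00 for all genes, and the groups did not overlap for 7 of the 10, 6 of them lower in LPD-fed males, beside 46.5% of all genes. With uniquely mapped reads, Atf7 and Suv39h1 overlapped in F0, and the count was 5 in place of 7. The share of all genes was not computed for these reads. The interaction of generation and diet passed the threshold for 0 of the 10 members with edgeR and 0 with DESeq2 or limma, beside 189 of 15111 genes (1.25%, edgeR). An unadjusted p under 0.05 was found for 2 members (Creb5 and Suv39h1), beside 12.5% of all genes (edgeR).

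All 3 family members were lower in the 6 F1 mice than in the 4 F0 mice. This contrast cannot separate generation from age or from the set of libraries, since these coincide and cannot be told apart. Creb5 had a log2 fold change of −0.75 (SE 0.08, adjusted p = 2.87e-05), Atf2 of −0.29 (SE 0.06, adjusted p = 0.00374) and Atf7 of −0.26 (SE 0.06, adjusted p = 0.00507, edgeR fit of all libraries). All F1 values of these 3 genes lay below all F0 values, and 20.1% of all genes had groups that did not overlap in this contrast. Marker genes differed as well: 6 of 8 adipocyte, 9 of 10 skeletal muscle, 3 of 6 fibroblast and progenitor and 2 of 6 macrophage markers passed as lower in F1 (edgeR). As higher in F1, 5 of 7 cycling-cell, 4 of 8 lymphocyte and 2 of 5 endothelial markers passed (edgeR). The part of tissue make-up was not tested. The threshold was passed by 4906 of 15111 genes (32.5%), 2432 of them (16.1%) as lower in F1, against 3 of 10 members, so the share of members is near that of all genes. The call of Atf7 was lost with uniquely mapped reads (−0.06, adjusted p = 0.744), with total gene reads (−0.12, adjusted p = 0.0912) and with the expression value column (−0.20, adjusted p = 0.123, all edgeR). None of the 7 enzymes passed the threshold on exon reads with edgeR or DESeq2. An unadjusted p under 0.05 was found for 1 of them (Kdm3a, −0.16, adjusted p = 0.0770, edgeR), beside 42.5% of all genes. With total gene reads, which add introns, Suv39h2 passed as lower in F1 (−0.43, adjusted p = 0.0181, edgeR). With limma on RPKM, Kdm3a (adjusted p = 0.00755) and Kdm4c (adjusted p = 0.0174) passed, on a scale where the median of all genes was −0.17.

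The genes most like each member across the 10 libraries, by the Pearson correlation of log2 CPM over 9932 genes of at least 10 CPM, are given as a description, since the libraries share generation and diet. Creb5 was most like Tnxb, a gene of the extracellular matrix (r = 0.993), and 123 genes had an r over 0.9 with it. Atf7 was most like Ppp2r3a (r = 0.986) and Atf2 most like Prpf39 (r = 0.984). For the enzymes the highest values were 0.967 (Kdm4c with Zfp182), 0.947 (Kdm3a with Washc5), 0.932 (Ehmt2 with Rfng), 0.915 (Suv39h1 with Ndc1), 0.901 (Suv39h2 with Rhog), 0.895 (Ehmt1 with Zfp839) and 0.884 (Setdb1 with Ddx51). Ehmt1 and Setdb1 had no gene with an r over 0.9.

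Genes that work beside the members were taken as 6 lists with 64 genes, of which 58 were tested. In F1, 1 of the 58 (1.72%, beside 1.17% of all genes) passed the threshold and in F0 6 (10.3%, beside 2.5%), all of them higher under the LPD with edgeR. Of these 6, 3 were thermogenic genes, and the study itself reports Ppara and Ucp1 as raised by the LPD in F0. The lists were chosen with earlier results of these data known, so these shares are no test of the lists. With DESeq2 the counts were 1 and 4 (Dusp10, Jun, Fos and Ppara), with limma on RPKM 0 and 1 (Jun), and in F0 with all 4 groups in 1 edgeR fit 2 (Dusp10 and Jun). The medians of the lists stand beside 0.01 in F1 and 0.00 in F0 for all genes tested. Their counts at an unadjusted p under 0.05 stand beside 15.3% of all genes in F1 and 15.7% in F0 (edgeR).

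None of the 6 tested genes among the other writers and their cofactors passed in either generation with edgeR, DESeq2 or limma (median log2 fold change 0.08 in F1 and −0.0056 in F0), and 0 in F1 and 1 in F0 had an unadjusted p under 0.05. This 1 gene, Wiz, a zinc-finger partner of EHMT1 and EHMT2, was at 55.7 and 54.5 CPM in F0 CD-fed and 46.4 and 47.3 CPM in LPD-fed males (−0.23, adjusted p = 0.221, edgeR). Zfp644, another partner of the pair with only 9.16% unique reads, had 0.15 in F1 (adjusted p = 0.414) and −0.16 in F0 (adjusted p = 0.471, edgeR). None of the 8 tested other erasers passed with any of the 3 tools (median 0.02 in F1 and 0.03 in F0), with 2 in F1 and 1 in F0 at an unadjusted p under 0.05. Kdm7a, a demethylase of H3K9 and H3K27, was at 109, 105 and 108 CPM in CD offspring and at 146, 138 and 116 CPM in pLPD offspring (0.32, adjusted p = 0.142, edgeR), with 39.7% unique reads, and Phf8, a related demethylase, had a log2 fold change of 0.27 in F1 (adjusted p = 0.301) and 0.47 in F0 (adjusted p = 0.195, edgeR), where it passed without LPD-fed male 1 (0.71, adjusted p = 0.0218), with no filter on low counts (adjusted p = 0.000319) and with the replicate block (adjusted p = 0.000164).

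Readers and silencing complexes, such as the HP1 proteins and the HUSH complex, held 11 tested genes, of which none passed with edgeR, DESeq2 or limma and 1 in F1 and 0 in F0 had an unadjusted p under 0.05. In F1 10 of the 11 estimates were above 0, with a median of 0.15, and in F0 4 of the 11, with a median of −0.07. Uhrf1, which reads H3K9 methylation and guides maintenance of DNA methylation in dividing cells, was at 11.9, 9.01 and 10.3 CPM in CD offspring and at 13.6, 18.4 and 13.4 CPM in pLPD offspring (0.56, adjusted p = 0.183, edgeR). The sum of the cycling-cell markers was higher in the same mice, and its part in this difference was not tested. Pphln1 of the HUSH complex had log2 fold changes of 0.01 in F1 and 0.20 in F0 (adjusted p = 0.343, edgeR).

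Of 14 tested stress kinases and phosphatases upstream of ATF2 and ATF7, Dusp10, which inactivates p38 and JNK, passed in F0. It was at 25.5 and 21.1 CPM in CD-fed and 36.4 and 39.5 CPM in LPD-fed males (0.70, SE 0.12, adjusted p = 0.0246, edgeR), a call lost without CD-fed male 2 (0.58, adjusted p = 0.112) or LPD-fed male 2 (0.65, adjusted p = 0.124) and with limma (0.64, adjusted p = 0.0731). In F1, Dusp10 was at 35.0, 38.9 and 35.6 CPM against 45.1, 47.0 and 48.7 CPM (0.37, adjusted p = 0.0946, edgeR), and none of the list passed with edgeR, DESeq2 or limma, 1 having an unadjusted p under 0.05.

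Among 13 tested bZIP partners and relatives, Jun and Fos, which form dimers with the family, were higher in LPD-fed F0 males. Jun was at 44.7 and 43.5 CPM in CD-fed and 79.1 and 84.3 CPM in LPD-fed males (0.89, SE 0.09, adjusted p = 0.00373, edgeR), and kept its call without each mouse in turn. In F1, Jun was at 58.6, 61.2 and 84.1 CPM in CD offspring and 42.3, 51.3 and 53.7 CPM in pLPD offspring (−0.46, adjusted p = 0.159, edgeR), which passed with no filter on low counts (adjusted p = 0.0124). Its diet difference thus ran in opposite directions, and the interaction passed the threshold (−1.36, SE 0.21, adjusted p = 0.00960, edgeR), a call lost with limma (−1.43, adjusted p = 0.0553) and without F0 CD-fed male 2 (−1.34, adjusted p = 0.0735). Fos was at 4.81 and 4.19 CPM against 9.65 and 13.5 CPM in F0 (1.36, SE 0.23, adjusted p = 0.0243, edgeR), a call lost without CD-fed male 2 (1.27, adjusted p = 0.0849) or LPD-fed male 2 (1.10, adjusted p = 0.124), with limma (1.21, adjusted p = 0.0610) and with all 4 groups in 1 fit (1.36, adjusted p = 0.0688). In this list 12 of 13 estimates were above 0 in F0 (median 0.19) and 3 of 13 in F1 (median −0.17).

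Of 6 thermogenic genes, Ppargc1a, the coactivator that drives mitochondrial and thermogenic programs and whose promoter is a known CRE target, was higher in pLPD offspring. It was at 18.9, 16.2 and 16.5 CPM in CD offspring and at 46.6, 26.9 and 32.8 CPM in pLPD offspring (1.05, SE 0.18, adjusted p = 0.0260, edgeR). The call was lost without CD offspring 1 (1.12, adjusted p = 0.0945), CD offspring 2 (1.01, adjusted p = 0.125) or pLPD offspring 1 (0.81, adjusted p = 0.0541), with the exon share as a covariate (0.51, adjusted p = 0.520), and with limma (0.81, adjusted p = 0.0617). In F0, Ppargc1a was at 19.7 and 23.0 CPM against 13.3 and 19.3 CPM (−0.40, adjusted p = 0.343, edgeR), which turned to 0.42 when reads on introns were added, and the interaction passed the threshold on exon reads (1.44, SE 0.30, adjusted p = 0.0410, edgeR). This call was lost with limma (1.25, adjusted p = 0.0912), without any 1 of the 4 F0 mice and without CD offspring 1, CD offspring 2 or pLPD offspring 3 (adjusted p 0.0610 to 0.222 over these 7).

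Ucp1, the uncoupling protein of brown and beige fat, was at 58.5 and 13.5 CPM in F0 CD-fed males and at 238 and 290 CPM in LPD-fed males (2.89, SE 0.47, adjusted p = 0.0196, edgeR), a call lost without LPD-fed male 2 (2.74, adjusted p = 0.0554), with DESeq2 (adjusted p = 0.0873), with limma (adjusted p = 0.0680) and with all 4 groups in 1 fit (adjusted p = 0.0603). Cidea, a lipid droplet protein of the same cells, was at 98.1 and 56.4 CPM against 295 and 178 CPM (1.62, SE 0.27, adjusted p = 0.0233, edgeR), a call that was also lost with DESeq2 (adjusted p = 0.0739), limma (adjusted p = 0.0725), total gene reads (adjusted p = 0.0564) and all 4 groups in 1 fit (adjusted p = 0.0502). Ppara, a receptor that drives fatty acid oxidation, was at 14.1 and 21.2 CPM against 43.3 and 33.6 CPM (1.12, SE 0.19, adjusted p = 0.0249, edgeR), a call lost without CD-fed male 1 (0.86, adjusted p = 0.0530) or LPD-fed male 1 (0.92, adjusted p = 0.0705), with limma (adjusted p = 0.0835) and with all 4 groups in 1 fit (adjusted p = 0.253). In these same F0 mice 9 of the 10 skeletal muscle markers were lower in both LPD-fed males than in both CD-fed males. Between these groups 46.5% of all genes tested did not overlap, and the part of the muscle share was not tested. In F1 the 3 genes did not pass: Ucp1 ranged from 694 to 1049 CPM in CD offspring and from 389 to 1581 CPM in pLPD offspring. The estimate for Ucp1 moved from −0.16 to −2.12 (adjusted p = 0.00513, edgeR) with the exon share as a covariate and to −1.14 (adjusted p = 0.0189, edgeR) without pLPD offspring 1, and Ppara (0.82) passed with no filter on low counts (adjusted p = 0.00101, edgeR).

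**Figure D5:**
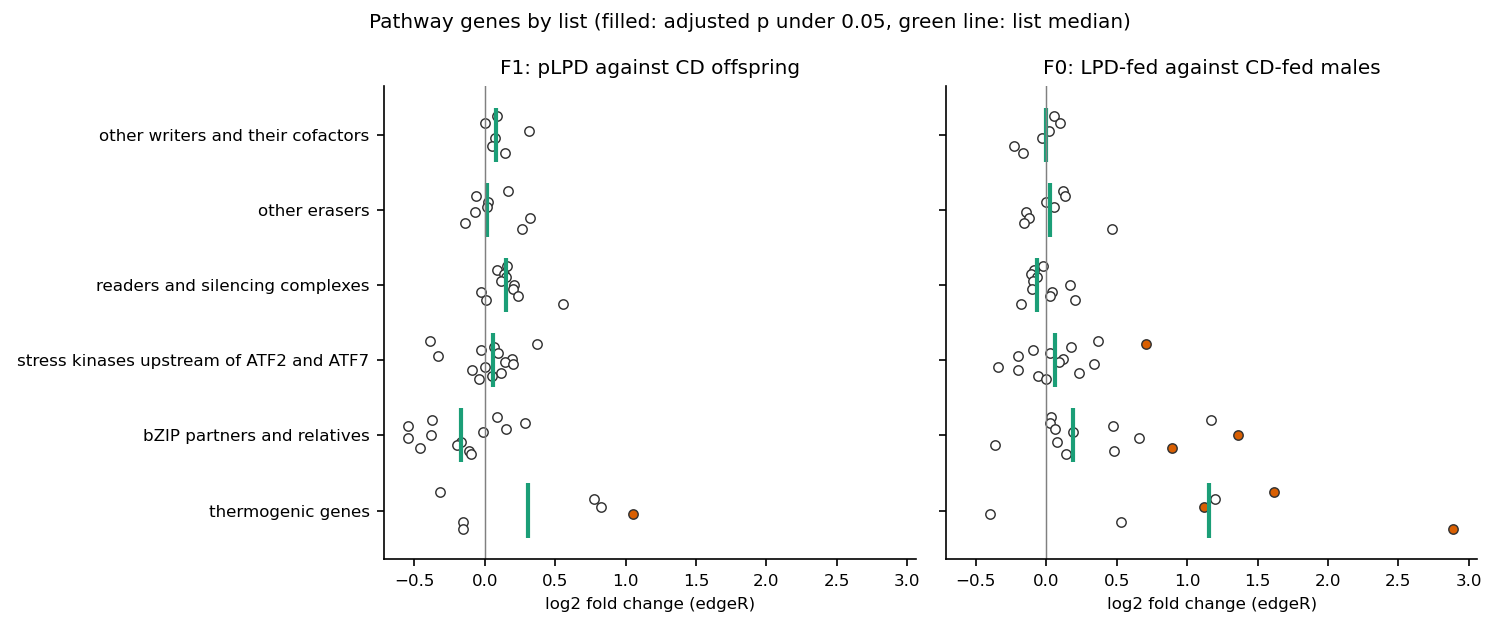
Log2 fold changes (edgeR, horizontal axis) of the 58 tested genes of the 6 lists (points) with the list median (green line), for pLPD against CD offspring (left) and LPD-fed against CD-fed F0 males (right), filled where the adjusted p is under 0.05. In F1 only Ppargc1a (1.05) is filled, and in F0 Dusp10, Jun, Fos, Ppara, Cidea and Ucp1 (0.70 to 2.89).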

How the data were processed

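Total RNA of iWAT was depleted of rRNA, made into directional libraries and sequenced as pairs of 36 bases. The authors mapped reads to mm10 in CLC Genomics Workbench 9.5.1 and deposited, per gene, counts of exon, intron and whole-gene reads, all and unique, with no normalization. The strand setting was not given in the sources used here. The expression value is a further deposited count column whose assignment of reads is not stated. Deposited RPKM values are exon reads that the authors divided by exon length and library total, and the deposited TPM values were not used. CPM values were computed from the exon counts with TMM factors over all 10 libraries. Genes passing filterByExpr were tested with the quasi-likelihood F test of edgeR 4.0.16 (limma 3.58.1) in R 4.3.3, F1 and F0 in a fit each, the interaction and the contrast of F1 with F0 in a fit of all libraries, with Benjamini-Hochberg adjustment over all genes tested and a threshold of 0.05. Fold changes are given on the log2 scale, and intervals cover 95%. Exact two-sided permutation tests used log2 CPM with 0.5 added. The script was tested on simulated data. The labels number the libraries of a group as replicates, and each library was taken as a separate mouse. The members and lists were chosen with earlier results of these data known. The text names all members, pathway genes past the threshold in a diet comparison and, for lists with none, the 2 genes with the smallest p, and the most alike gene per member. Map2k7 was not analysed here, and 5 pathway genes were below the filter. Counting limits cover counting error only.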

Additional observations from a re-analysis of the deposited data

Results flagged for a closer look

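The diet difference of 2 genes beside the members differed between generations by the test of the interaction in the edgeR fit of all libraries. For Jun the interaction was −1.36 (adjusted p = 0.00960), with −0.46 in F1 and 0.89 in F0. Jun was lower in 3 of 3 pLPD offspring than in every CD offspring and higher in 2 of 2 LPD-fed F0 males than in either CD-fed male. The call was lost with limma (adjusted p = 0.0553) and without F0 CD-fed male 2 (adjusted p = 0.0735). For Ppargc1a the interaction was 1.44 (adjusted p = 0.0410), with 1.05 in F1 and −0.40 in F0. It fell to 0.30 (adjusted p = 0.545) when reads on introns were added, and the call was also lost with limma (adjusted p = 0.0912) and without any 1 of 7 mice.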

How the results depend on the processing

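With 2 or 3 mice per group, the count of members passing in F1 was 0 in place of 1 with total gene reads (Creb5 −0.54, adjusted p = 0.0578, edgeR), limma-trend on RPKM (−0.74, adjusted p = 0.0957) and the exon share as a covariate (−0.45, adjusted p = 0.501), and Creb5 kept its direction and call under the other 8 alternatives, DESeq2 1.42.0 among them. In F0 the count was 1 in place of 0, Creb5, with no filter on low counts (adjusted p = 0.0199, edgeR). With limma-trend it was 5 in place of 3 in F1 against F0, and with unique intron reads 1 in place of 0 in F1. With each F1 mouse left out in turn, 0 to 1 members passed in F1 on exons and 0 to 1 on introns. Of all genes, 18 to 510 passed in these fits on exons and 5 to 190 on introns. On RPKM the median of all genes moved to −0.15 in F1 and −0.17 in F1 against F0, so fold changes there are relative to those. Over all genes, the 164 calls in F1 became 798 with no filter, 375 with DESeq2, 339 with all 4 groups in 1 fit, 260 with the replicate block, 13 with the exon share and 117 (2 higher, 115 lower) with limma-trend, the 364 in F0 became 1343 with no filter, 1389 with the block, 175 with all 4 groups and 82 with limma-trend, the 189 of the interaction became 890 with no filter, 353 with DESeq2 and 74 with limma-trend, and on introns the 57 in F1 became 124 with unique reads and 100 with the block and the 499 in F0 808 with the block. In F1 against F0 limma-trend gave 1082 higher and 4239 lower, in place of 2474 and 2432. Of the 58 genes beside the members, 12 passed in F0 with the block, in place of 6. With no filter, 63 of these genes were tested in F0 and 12 passed. In F1 against F0, 2 in place of 3 members of the ATF2/ATF7 family passed with unique reads and with the expression value column, where Atf7 lost its call, and with total gene reads Atf7 lost its call and Suv39h2 gained one. The expression value column was added as an alternative after seeing the data.

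Whether equal replicate numbers mark paired mice is not stated in the sources used here. Deviations from the group mean of same-numbered mice correlated at 0.039, −0.00014 and 0.0072 in F1 and 0.049 in F0. With 2 mice per group, both replicate numbers give the same value in F0. Such low values show no sign of pairing but cannot settle it. With the replicate block, Creb5 kept its call in F1 (−0.72, adjusted p = 0.0235, edgeR) and gained it in F0 (−0.36, adjusted p = 0.00724), where 1 in place of 0 members passed.

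The direction of some estimates that missed the threshold turned. In F1, Atf7 was at −0.13 with unique reads, −0.13 with limma-trend, −0.17 with the expression value column and −0.037 with the exon share, Ehmt1 at −0.11 with limma-trend and −0.056 with the exon share, Setdb1 at −0.11, Wiz at −0.10, Zfp644 at −0.015 and Pphln1 at −0.15 with limma-trend, Wiz at −0.0077 with total gene reads and Ppara at −0.40 with the exon share. In F0, Setdb1 was at −0.018 with limma-trend, Suv39h1 at 0.066 and Suv39h2 at 0.11 with unique reads, 0.048 and 0.11 with the expression value column, and Kdm3a at 0.061, Kdm4c at 0.042 and Ppargc1a at 0.42 with total gene reads. For the interaction, Atf7 was at −0.0056 with unique reads and −0.10 with the expression value column, and Atf2 at −0.0062 and Setdb1 at −0.089 with limma-trend. In F1 against F0 with limma-trend, Ehmt1 was at −0.078, Ehmt2 at −0.087 and Setdb1 at −0.060. On introns in F1, normalized with the exon reads, Ehmt2 was at 0.020. With a mouse left out, ranges that crossed 0 were, in F1, −0.011 to 0.073 for Atf7, −0.060 to 0.15 for Setdb1, −0.053 to 0.069 for Pphln1 and −1.14 to 0.17 for Ucp1, in F0 −0.019 to 0.092 for Setdb1, −0.46 to 0.35 for Suv39h2 and −0.092 to 0.053 for Kdm3a, for the interaction −0.080 to 0.010 for Ehmt2, −0.097 to 0.11 for Setdb1 and −0.77 to 0.12 for Suv39h2, in F1 against F0 −0.47 to 0.027 for Suv39h2, on introns in F1 −0.18 to 0.00067 for Ehmt2 and −0.067 to 0.080 for Setdb1, and on introns in F0 −0.085 to 0.036 for Atf2, −0.056 to 0.027 for Ehmt1, −0.20 to 0.042 for Ehmt2, −0.0091 to 0.50 for Suv39h1 and −0.14 to 0.28 for Suv39h2. The cause was not tested.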
